A study of Mus musculus with 17 samples.

Results

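Eicosanoid synthesis in mouse liver macrophages was described by 10 genes, chosen by symbol: Pla2g4a, Ptgs1, Ptgs2, Ptges, Hpgds, Tbxas1, Alox5, Alox5ap, Ltc4s and Hpgd. All 10 were found among the 25124 genes that each of the 3 deposited tables lists. Their levels were not a criterion, but earlier results of these data were known when they were chosen. The study sequenced RNA of sorted Kupffer cells (KCs), which reside in liver sinusoids as macrophages, in 17 samples that fall into 6 groups. In the tumour experiment, TIM4+CD206+ KCs and TIM4+CD206high KCs were sorted from mice that were either untreated or had received KPC tumour cells through the portal vein 2 weeks earlier, with 3 samples in each of the 4 groups. KPC cells are a mouse pancreatic adenocarcinoma line. In the genotype experiment, KCs came from untreated Id3f/f mice (n = 3) and untreated Clec4fcreId3f/f mice (n = 2), in which the KC-restricted Clec4f promoter drives Cre. Both genotypes carry the floxed Id3 alleles, and the Id3f/f group carries no Cre. The labels do not say whether a sample was 1 mouse or a pool, and the ages of these mice are not given in the sources used here. The p-values therefore measure the spread between samples, which may be partly technical.

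Eicosanoids are lipid mediators made from arachidonic acid, a fatty acid that phospholipases cut out of membranes. Cyclooxygenases turn it into prostaglandin H, from which terminal synthases make prostaglandins and thromboxane, while a lipoxygenase with its activating protein turns it into leukotriene A, the parent of the leukotrienes. Macrophages are a well-known source of both branches, and KCs are known as a main source of prostaglandins and thromboxane in the liver. ID3, the factor deleted in the genotype experiment, has no DNA-binding region of its own and dimerizes with E proteins, factors that bind E-boxes.

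Of the 10 members, 3 had an adjusted p under 0.05 (limma) in one of the comparisons. Each of these calls was lost when certain single samples were left out. Alox5, the lipoxygenase that makes leukotriene A, rose with tumour in TIM4+CD206+ KCs, as did 2.55% of all genes tested. With Id3 deletion, Hpgds, a synthase that makes prostaglandin D, fell and Ptgs1, the constitutive cyclooxygenase, rose. Of all genes tested there, 3.37% fell and 3.08% rose. A stretch before a transcript start of each of these 3 genes is shown. In it the presence or absence of the E-box letters CANNTG can be read. The letters are from RefSeq on GRCm38.p6, read along the gene's strand, with CANNTG in capitals. Where a window of 250 bases held an annotated exon, all bases from that exon to the start were left out. For Alox5 the stretch is chr6:116461179-116461428, on the minus strand and 250 bases long. For Hpgds it is chr6:65144909-65144980, on the minus strand and 72 bases long. These are the bases farthest from the start in a window of 250 bases (chr6:65144731-65144980). A further CANNTG begins at -80 from the start, in the part not shown. For Ptgs1 it is chr2:36230176-36230425, on the plus strand and 250 bases long. The Hpgds and Ptgs1 stretches lie inside the gene's span, before the start of a transcript that begins within it.
Alox5: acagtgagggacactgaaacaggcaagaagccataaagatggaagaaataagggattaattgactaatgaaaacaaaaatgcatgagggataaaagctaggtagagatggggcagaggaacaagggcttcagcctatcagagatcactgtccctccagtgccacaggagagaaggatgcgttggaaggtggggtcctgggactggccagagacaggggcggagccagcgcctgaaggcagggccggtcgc
Hpgds: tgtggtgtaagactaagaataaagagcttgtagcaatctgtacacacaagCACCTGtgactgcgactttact
Ptgs1: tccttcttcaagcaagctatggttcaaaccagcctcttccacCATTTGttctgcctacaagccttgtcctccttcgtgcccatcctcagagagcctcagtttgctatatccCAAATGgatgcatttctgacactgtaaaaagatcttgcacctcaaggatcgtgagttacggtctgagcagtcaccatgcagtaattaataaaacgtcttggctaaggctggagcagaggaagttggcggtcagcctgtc
CANNTG reads the same on both strands, and its matches were not searched against other motifs. It was present in 0, 1 and 2 copies in these stretches of Alox5, Hpgds and Ptgs1. The full window of 250 bases before the Hpgds start held 2 copies of CANNTG. Of 10 windows of 250 bases listed for members (Pla2g4a has a pair of them, Alox5ap has none), 8 held it, beside 66.2% of 32851 such windows over all genes. A match is a string of letters and no evidence of binding.

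The deposited values are on a log2 scale, normalized separately in each table, so differences between the tables were not tested. Depth per sample is not in the files. The values behave like a regularized log, which would draw weakly expressed genes towards their mean and understate their differences. To compare levels between genes, the log2 of the exon length in kilobases was subtracted. By this level per kilobase, Hpgd and Ptgs1 were the highest members in all 6 groups, followed by Alox5ap. This order depends on the length used, the union of all annotated exons (9094 bases for Tbxas1, 1420 for Alox5ap). In the deposited values of tumour-free TIM4+CD206+ KCs, Tbxas1 (14.16) lay above Alox5ap (13.12) and Ptgs1 (15.71) above Hpgd (14.62). If the values were already scaled by length, as the column name TPM would mean, the subtraction would not be due. Hpgd, the dehydrogenase that inactivates prostaglandins, had a level per kilobase of 13.87 ± 0.23 (SD, n = 3) in tumour-free TIM4+CD206+ KCs, 14.77 ± 0.13 (n = 3) in tumour-free TIM4+CD206high KCs and 14.59 ± 0.30 (n = 3) in Id3f/f KCs. Ptgs1 followed with 13.76 ± 0.12, 13.61 ± 0.34 and 12.22 ± 0.06 in the same groups. Hpgd and Ptgs1 overlapped in tumour-free TIM4+CD206+ KCs and were separate in the other 5 groups. Ptgs1 and Alox5ap were not separate in tumour-bearing TIM4+CD206+ KCs, where their means differed by 0.024.

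**Figure D1:**
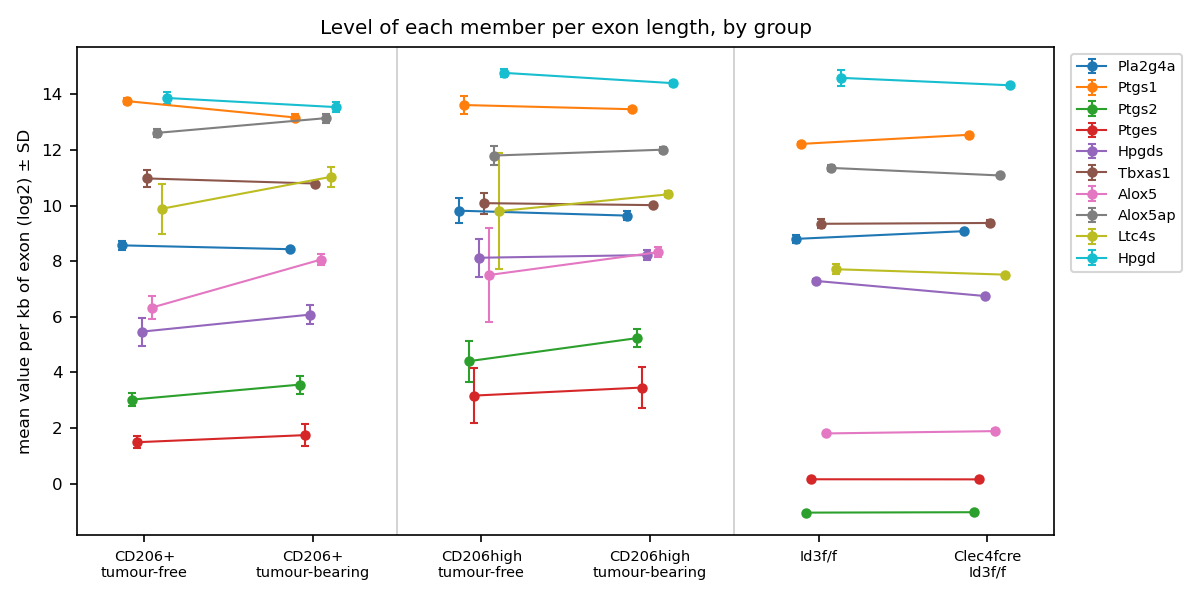
Mean level per kilobase of exon (log2) of the 10 members in the 6 groups; error bars are the SD over 2 or 3 samples, and lines join the 2 groups of a table, since the 3 tables were normalized separately. Hpgd and Ptgs1 lie at the top and Ptgs2 and Ptges at the bottom of every group, and Alox5 lies at 1.80 in Id3f/f KCs.

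The inducible members were low. Ptgs2, the cyclooxygenase induced by inflammatory signals, and Ptges, a synthase of prostaglandin E, were the lowest pair in every group. Their levels per kilobase were 3.02 ± 0.24 and 1.49 ± 0.22 in tumour-free TIM4+CD206+ KCs. In Id3f/f KCs they were -1.04 ± 0.002 and 0.16 ± 0.02. In the leukotriene branch, Alox5 stood at 6.33 ± 0.42 per kilobase in tumour-free TIM4+CD206+ KCs and 7.50 ± 1.69 in tumour-free TIM4+CD206high KCs, and at 1.80 ± 0.02 in Id3f/f KCs. In the same groups Ltc4s stood at 9.89 ± 0.90, 9.80 ± 2.09 and 7.71 ± 0.18, and Alox5ap at 12.61 ± 0.16, 11.80 ± 0.34 and 11.35 ± 0.10. These levels are set side by side across separately normalized tables and were not tested between them. Tbxas1, the thromboxane synthase, was at 10.97 ± 0.31, 10.09 ± 0.38 and 9.34 ± 0.17 in the tumour-free TIM4+CD206+, tumour-free TIM4+CD206high and Id3f/f groups, and Pla2g4a, the cytosolic phospholipase that releases arachidonate, at 8.57 ± 0.15, 9.81 ± 0.44 and 8.80 ± 0.13. Neighbours in the order whose sample values were not separate in tumour-free TIM4+CD206+ KCs were Hpgd and Ptgs1, Tbxas1 and Ltc4s, and Alox5 and Hpgds. In tumour-free TIM4+CD206high KCs, Tbxas1, Pla2g4a, Ltc4s, Hpgds and Alox5 each overlapped the next in this order, as did Ptgs2 and Ptges. In the tumour-bearing groups, Ltc4s and Tbxas1 overlapped in TIM4+CD206+ KCs and Alox5 and Hpgds in TIM4+CD206high KCs. In Id3f/f and Clec4fcreId3f/f KCs every neighbouring pair was separate. The lowest members, Alox5, Ptges and Ptgs2, were nearly constant in Id3f/f KCs (SDs of 0.02, 0.02 and 0.002). If the values are a regularized log, the order among them may come from the transformation. Exons of Ptgs1, Tbxas1, Alox5ap and Ltc4s overlap exons of a gene on the opposite strand (Gm43621, Gm42962, Gm19719 and Gm26542), and where the counting did not use strand, reads of the pair cannot be told apart.

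**Figure D2:**
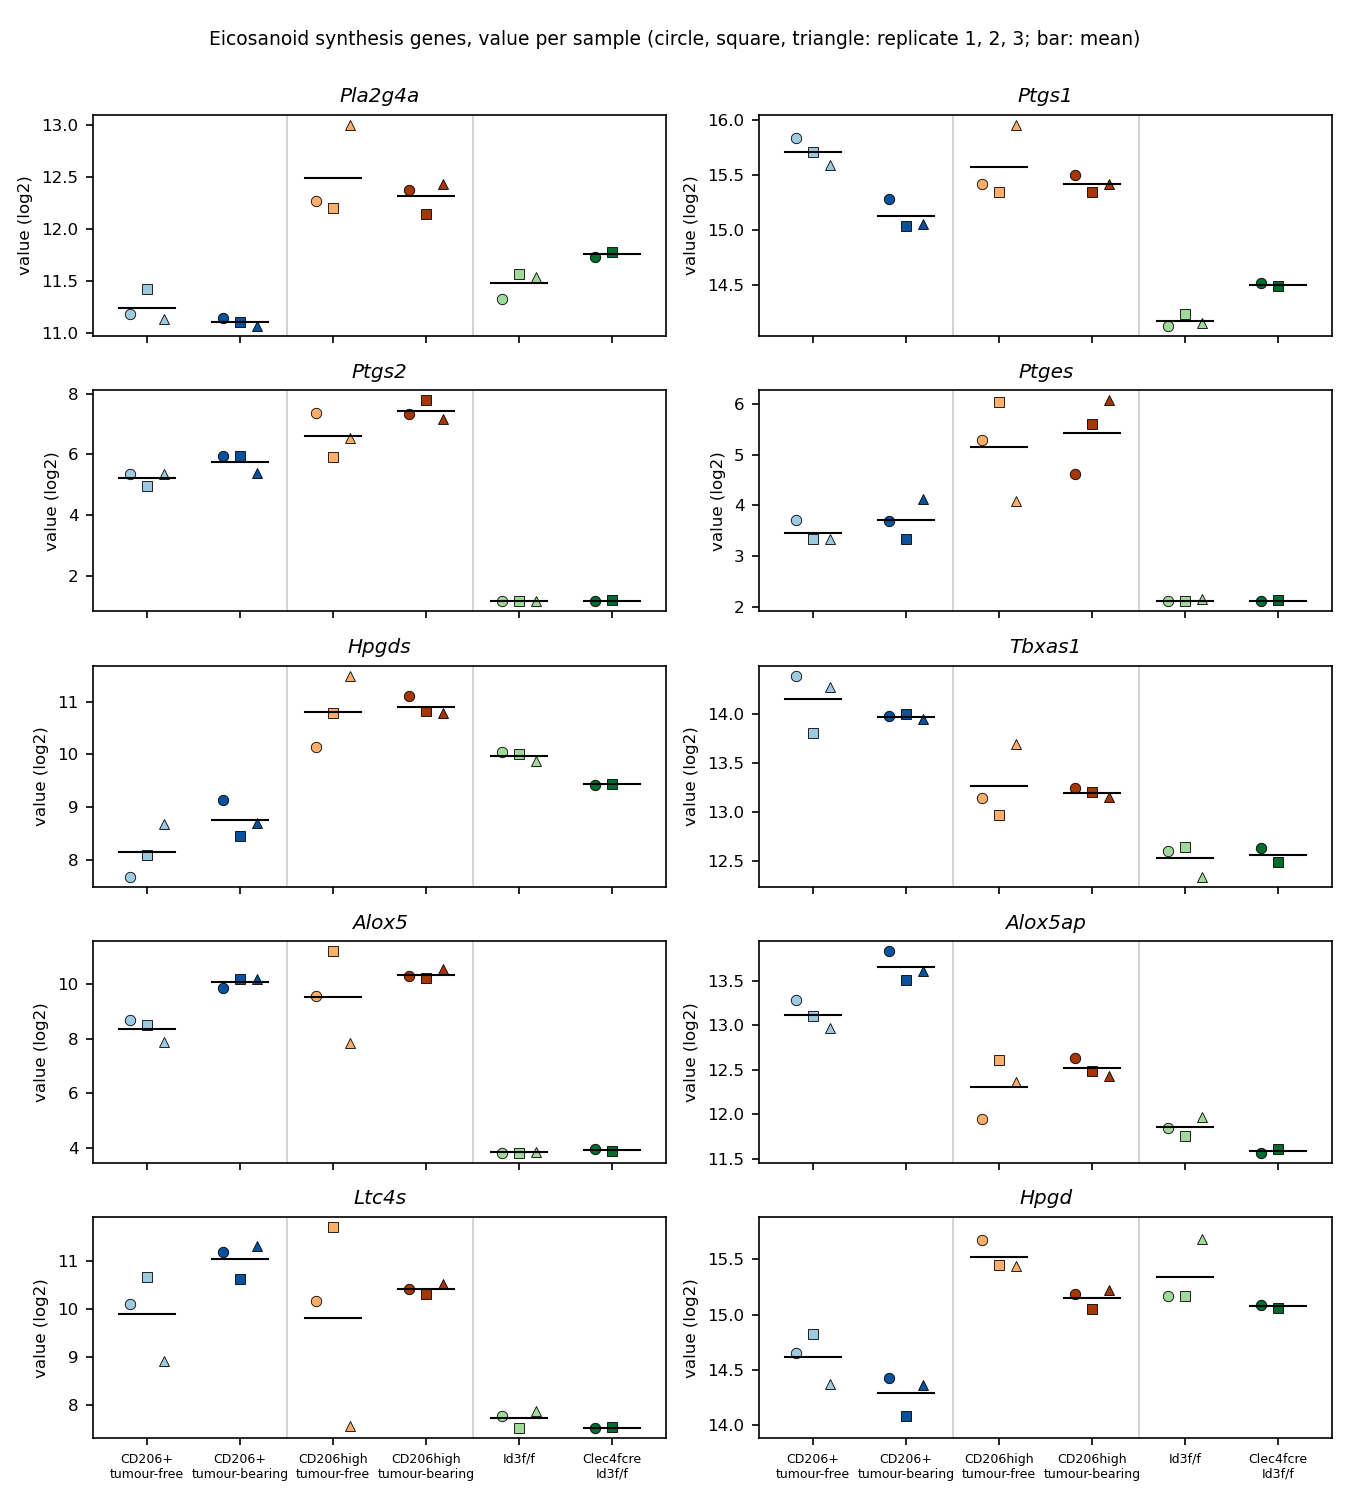
Deposited value (log2) of each member in each of the 17 samples; symbols give the replicate number, bars the group mean, and grey lines separate the 3 tables. The tumour-free TIM4+CD206high samples spread from 7.83 to 11.20 for Alox5 and from 7.57 to 11.71 for Ltc4s.

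Whether tumour in the liver goes with altered eicosanoid genes was examined in each KC subset on its own. In TIM4+CD206+ KCs, 1 of the 10 members rose and none fell at an adjusted p under 0.05 (limma, Benjamini-Hochberg over 13233 genes), beside 2.55% of all genes tested that rose and 0.998% that fell. Without adjustment, 4 members had a p under 0.05, beside 17.2% of all genes tested. For 4 of the 10, all tumour-bearing values lay on one side of all tumour-free values, beside 23.4% of all genes. The median change of the members was 0.39 on the log2 scale, beside 0.02 over all genes tested.

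The member that rose was Alox5. Its values in the tumour-free TIM4+CD206+ samples were 8.69, 8.52 and 7.90, and in the tumour-bearing samples 9.87, 10.19 and 10.21. All tumour-bearing samples lay above all tumour-free samples. The difference was 1.72 ± 0.26 (SE) on the log2 scale, a 3.30-fold higher value with a 95% interval of 2.20 to 4.95, and its adjusted p was 0.00913 (limma). The call was lost without tumour-bearing replicate 2 (difference 1.67, adjusted p = 0.0512) and without tumour-bearing replicate 3 (1.66, adjusted p = 0.0548).

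The other leukotriene genes did not pass the threshold. Alox5ap, which presents arachidonate to the lipoxygenase, read 13.28, 13.11 and 12.97 in tumour-free and 13.83, 13.51 and 13.61 in tumour-bearing TIM4+CD206+ samples. These groups did not overlap, and the difference was 0.53 ± 0.16 (SE, adjusted p = 0.131, limma). Ltc4s, the synthase that joins leukotriene A to glutathione, read 10.12, 10.68 and 8.92 against 11.20, 10.64 and 11.32. The groups overlapped, with a difference of 1.14 ± 0.42 (SE, adjusted p = 0.206, limma). Without tumour-free replicate 2 it was 1.53 with an adjusted p of 0.0413.

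In the prostanoid branch, Ptgs1 read 15.83, 15.71 and 15.59 in tumour-free and 15.28, 15.03 and 15.06 in tumour-bearing TIM4+CD206+ samples. Every tumour-bearing sample was below every tumour-free sample. The difference was -0.59 ± 0.16 (SE), with an adjusted p of 0.0863 (limma), which became 0.0292 without tumour-free replicate 2. Ptgs2 read 5.36, 4.94 and 5.34 against 5.93, 5.95 and 5.39, also without overlap, with a difference of 0.54 ± 0.24 (adjusted p = 0.302). Differences of the other 5 members ranged from -0.33 for Hpgd to 0.61 for Hpgds, whose 95% interval ran from -0.10 to 1.33. Tbxas1 differed by -0.18, Pla2g4a by -0.14 and Ptges by 0.26, each with an interval that includes 0. The replicate number was also fitted as a block, since same-numbered samples of this subset deviated together. With it, Alox5 kept its call (adjusted p = 0.00121, limma), and the other 9 members had adjusted p from 0.0668 for Ptgs1 to 0.685 for Pla2g4a. The labels do not pair these samples. The pairing was read from the same values, so the block is no independent check of the call.

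In TIM4+CD206high KCs no member passed the threshold (limma, 14561 genes), beside 5.21% of all genes that rose and 2.03% that fell. Without adjustment 1 member, Hpgd, had a p under 0.05, beside 21.1% of all genes, and it was also the 1 member of 10 whose groups did not overlap, beside 30.7% of all genes. Hpgd read 15.67, 15.45 and 15.44 in tumour-free and 15.18, 15.05 and 15.22 in tumour-bearing samples. The difference was -0.37 ± 0.16 (SE, adjusted p = 0.235, limma). The median change of the members was 0.15, beside 0.03 over all genes, and centring the samples on their medians lowers every difference in this subset by 0.16.

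Among the members, Ltc4s and Alox5 varied most between the tumour-free TIM4+CD206high samples, with SDs of 2.09 and 1.69, while Alox5ap had an SD of 0.34. Alox5 read 9.58, 11.20 and 7.83 in them, and 10.30, 10.22 and 10.56 in the tumour-bearing samples. The tumour-bearing samples lay between the tumour-free extremes, and the difference was 0.82 ± 0.75 (SE, adjusted p = 0.544, limma). Ltc4s read 10.17, 11.71 and 7.57 in tumour-free samples and 10.42, 10.32 and 10.52 in tumour-bearing ones, with a difference of 0.60 ± 0.91 (adjusted p = 0.719).
Replicates 2 and 3 of the tumour-free group decide these values. Without replicate 2 the Alox5 difference was 1.65 (adjusted p = 0.047), and without replicate 3 it was -0.04. Without replicate 3 the Ltc4s difference was -0.52.

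The summed level of the platelet and megakaryocyte markers (Pf4, Ppbp, Itga2b, Gp9, Gp1bb and Gp5) moved alongside in these samples, at 11.43, 13.16 and 11.00 in tumour-free replicates 1, 2 and 3, and ranged from 11.70 to 11.77 in the tumour-bearing samples. None of these 6 genes was listed at 0, but only 4 passed the filter, and 0 of these passed the threshold with tumour. The sum is taken on the linear scale, so its highest gene weighs most. In the tumour-free samples of the other subset, TIM4+CD206+ KCs, that gene was Pf4, with a mean of 11.29, beside 6.38 for Itga2b, the next. Which gene weighed most in the TIM4+CD206high samples is not given here. In the tumour-free TIM4+CD206high samples, the mast cell and basophil sum had the same order as the platelet sum (11.73, 11.88 and 11.27). The epithelial sum had it too (10.96, 11.25 and 10.72). Other lists did not, and the KC sum had the reverse order (19.92, 19.72 and 20.35). The part of any of these lists in the Alox5 and Ltc4s values was not tested. Alox15, a lipoxygenase known from macrophages and eosinophils, read 11.25, 14.31 and 8.25 in the same 3 samples, the same order as Alox5 and Ltc4s. It is named here for this order, which was not particular to it. Of the remaining members, only Ptges (5.29, 6.04 and 4.09) had the order too. Other pathway genes with it included Ptgis (10.34, 10.98 and 8.20), Cyp4f18 (10.23, 11.15 and 9.68) and Daglb, and not all pathway genes had it. In tumour-free TIM4+CD206+ samples Alox15 read 12.39, 10.25 and 9.78, the order of Alox5 but not of Ltc4s. In tumour-bearing TIM4+CD206+ samples it read 13.30, 9.63 and 10.96, and its highest sample was the lowest for Alox5 (9.87).

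**Figure D3:**
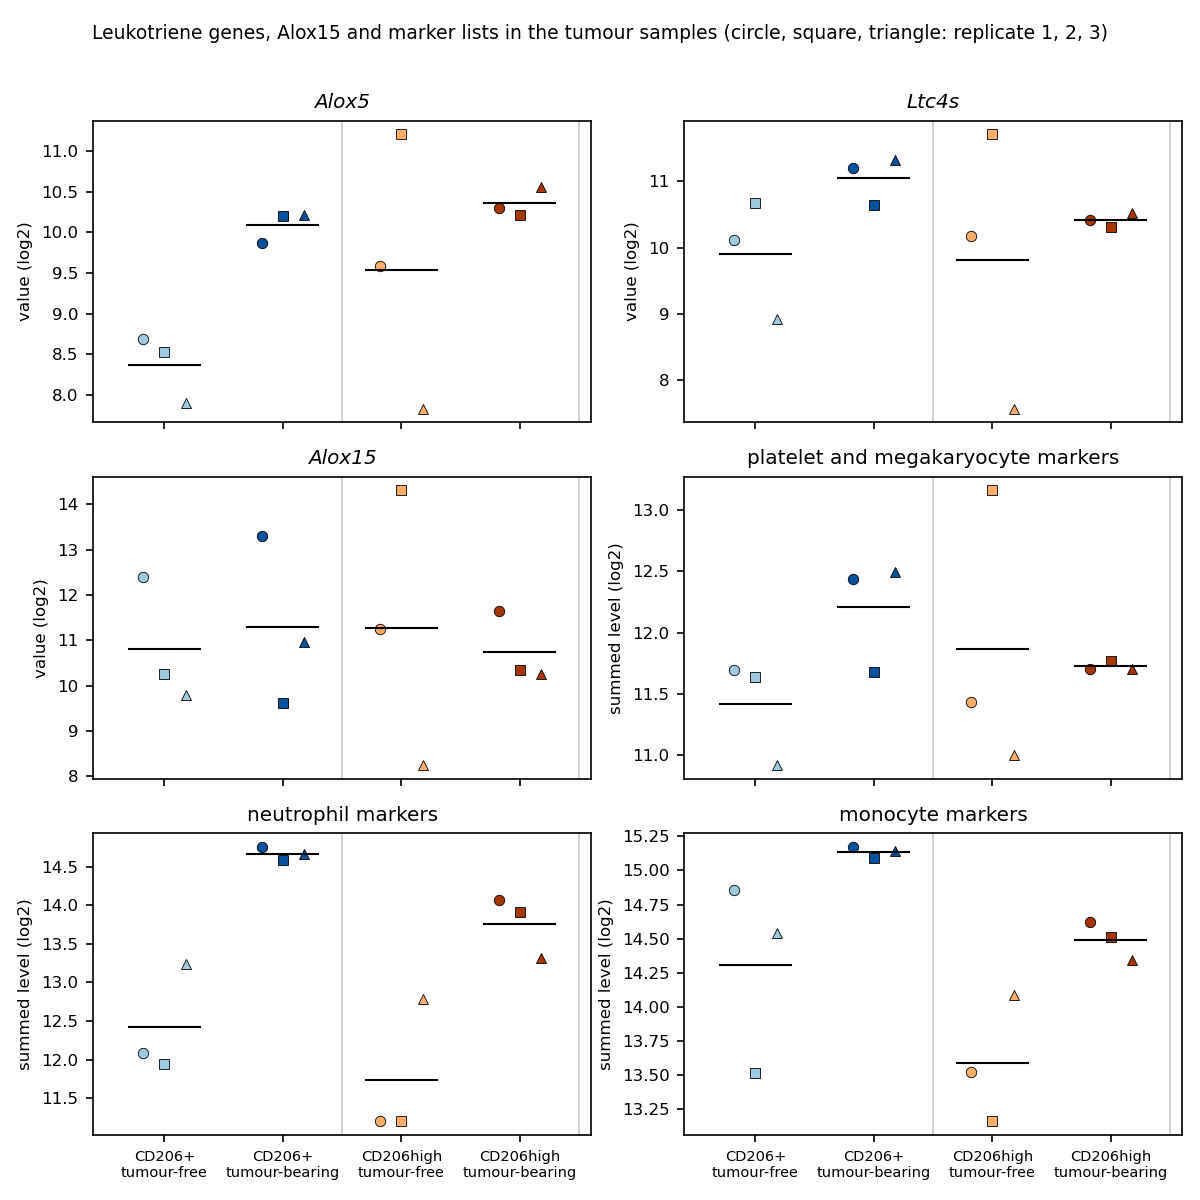
Alox5, Ltc4s and Alox15 (deposited log2 values) and the summed level (log2) of the platelet and megakaryocyte, neutrophil and monocyte marker lists in the 12 samples of the tumour experiment; symbols give the replicate number and bars the mean. The tumour-free TIM4+CD206high replicate 2 is highest for Alox5 at 11.20 and for the platelet list at 13.16, while the neutrophil and monocyte lists separate tumour-bearing from tumour-free samples.

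Among the prostanoid genes in TIM4+CD206high KCs, Ptgs2 read 7.37, 5.90 and 6.52 in tumour-free and 7.34, 7.79 and 7.16 in tumour-bearing samples. The groups overlapped, and the difference was 0.83 ± 0.39 (SE, adjusted p = 0.279, limma). Hpgds, Ptges, Ptgs1, Tbxas1 and Pla2g4a differed by 0.10, 0.29, -0.15, -0.07 and -0.18. Alox5ap differed by 0.21 ± 0.20. Whether the response of any member differs between the subsets was not tested, since the tables were normalized separately.

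Sorted KC samples can hold other cells, and these bulk values cannot tell fewer cells of a type from less RNA per cell. The KC markers Clec4f, Vsig4, Timd4, Cd5l, Marco, Adgre1, Csf1r and C1qa were detected in every table, with a summed level of 19.62 to 21.24 over the 17 samples. With tumour, all 8 epithelial markers rose in both subsets. Of the 8 neutrophil markers, 5 rose in each subset, and of the 6 monocyte markers 2 rose in TIM4+CD206+ KCs and 3 in TIM4+CD206high KCs. Of the 7 mast cell and basophil markers, 1 of 5 tested rose in TIM4+CD206+ KCs and 1 of 3 tested in TIM4+CD206high KCs. The summed neutrophil level went from a range of 11.94 to 13.24 to one of 14.59 to 14.76 in TIM4+CD206+ KCs, and the summed monocyte level from 13.51 to 14.85 to 15.09 to 15.17. No neutrophil or monocyte marker was at 0 in these tables. Neutrophils and monocytes are known to express Alox5 and Alox5ap. Other lists fell with tumour: 5 of the 6 hepatocyte markers in each subset, 3 of the 4 B cell markers in TIM4+CD206+ KCs and 2 in TIM4+CD206high KCs, and, in TIM4+CD206high KCs, 1 of 6 endothelial and 2 of 6 stellate markers. The summed hepatocyte level went from 14.08 to 14.48 to a range of 12.30 to 12.88 in TIM4+CD206+ KCs, and from 13.93 to 14.49 to a range of 12.14 to 12.63 in TIM4+CD206high KCs. In TIM4+CD206high KCs the summed endothelial level was high, at 17.02 to 17.66 without and 16.39 to 16.66 with tumour. In TIM4+CD206+ KCs it was 13.97 to 14.71 without and 13.56 to 13.89 with tumour. The part of any of these markers in the changes with tumour was not tested. Of the 8 KC markers, 3 (Timd4, Adgre1 and Csf1r) fell in TIM4+CD206+ KCs and 0 changed in TIM4+CD206high KCs.

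Deletion of Id3 in KCs was first checked on Id3 itself, which read 12.58, 12.46 and 12.82 in Id3f/f and 9.83 and 9.82 in Clec4fcreId3f/f samples, a difference of -2.80 ± 0.11 (SE, adjusted p = 1.40e-06, limma). Of the 10 members, 8 were tested, because Ptgs2 and Ptges were below the filter of 10 on the linear scale. Among these 8, 1 rose and 1 fell, beside 3.08% of all 12833 genes that rose and 3.37% that fell. Without adjustment, 5 of the 8 had a p under 0.05, beside 23.6% of all genes. For 6 of the 8, the values of both genotypes were separate, beside 41.9% of all genes. The median change of the 8 was -0.08, beside 0.00 over all genes.

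Hpgds fell. It read 10.04, 10.00 and 9.88 in Id3f/f and 9.43 and 9.43 in Clec4fcreId3f/f samples. Each deleted sample was lower than each control sample, with a difference of -0.54 ± 0.09 (SE), 0.687 times the control value with a 95% interval of 0.595 to 0.794, and an adjusted p of 0.0134 (limma).
Ptgs1 rose. It read 14.13, 14.24 and 14.16 in Id3f/f and 14.52 and 14.49 in Clec4fcreId3f/f samples. The groups were separate by a difference of 0.33 ± 0.07 (SE), a 1.26-fold higher value with a 95% interval of 1.12 to 1.41, and the adjusted p was 0.0332 (limma).
Both calls were lost without Id3f/f replicate 1 (adjusted p = 0.0549 for Hpgds and 0.0972 for Ptgs1) and without either deleted sample (0.174 to 0.209 for Hpgds and 0.264 to 0.386 for Ptgs1). The call of Ptgs1 was also lost without Id3f/f replicate 2 (0.0564).

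Of the remaining members, Pla2g4a read 11.32, 11.57 and 11.54 in Id3f/f and 11.73 and 11.78 in Clec4fcreId3f/f samples. These did not overlap, with a difference of 0.28 ± 0.10 (SE, adjusted p = 0.124, limma), and the adjusted p was 0.0434 without Id3f/f replicate 3. Alox5ap read 11.85, 11.76 and 11.97 against 11.57 and 11.61, a difference of -0.27 ± 0.09 (adjusted p = 0.110). Ltc4s differed by -0.19, Hpgd by -0.27, and Tbxas1 by 0.03, with 95% intervals of -0.44 to 0.06, -0.58 to 0.05 and -0.21 to 0.27. Alox5 was at 3.83 to 3.87 in Id3f/f and 3.88 to 3.97 in Clec4fcreId3f/f samples, just above the filter. Ptgs2 read between 1.15 and 1.18 and Ptges between 2.12 and 2.16 in all 5 samples.

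**Figure D4:**
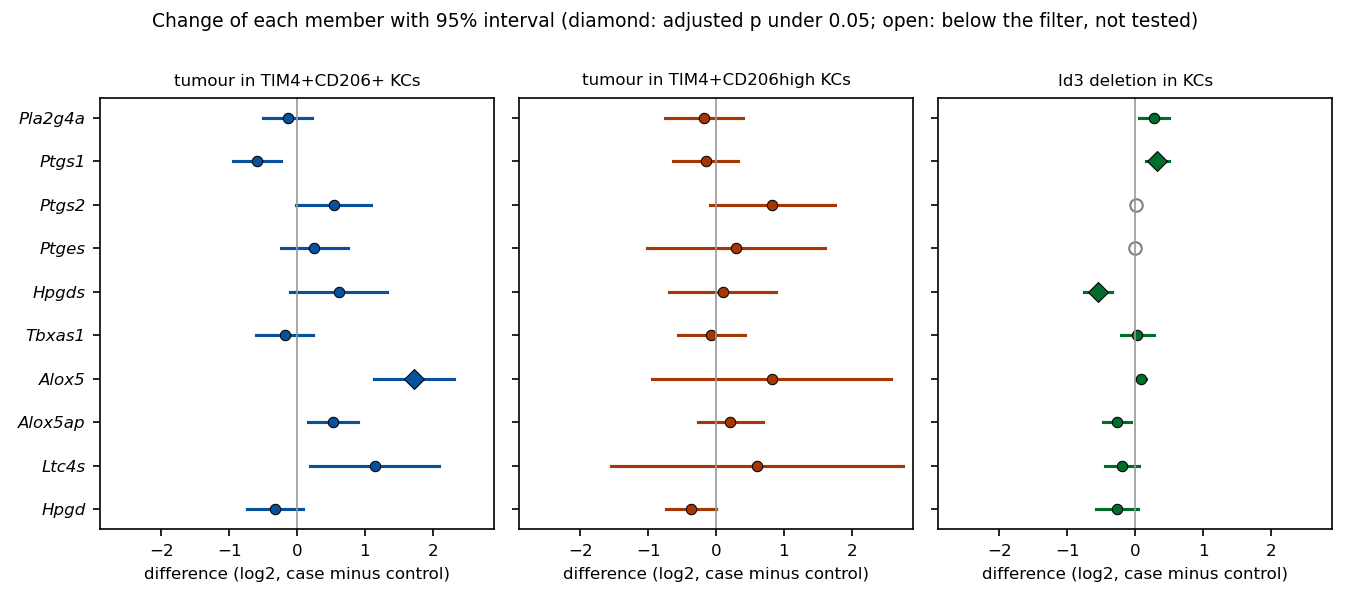
Difference of each member (log2, case minus control) with its 95% interval from limma in the 3 comparisons; diamonds mark an adjusted p under 0.05 and open circles the members below the filter. Alox5 at 1.72 in TIM4+CD206+ KCs with tumour, and Ptgs1 at 0.33 and Hpgds at -0.54 with Id3 deletion, are the 3 diamonds.

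The genotypes also differed in sex-linked genes. Xist was higher by 3.44 and Ddx3y lower by 2.44 on the log2 scale in Clec4fcreId3f/f samples (adjusted p = 5.74e-08 and 6.45e-07, limma). Sex and genotype cannot be told apart for the member changes. Of the 8 KC markers, Cd5l, Adgre1 and Csf1r rose, while C1qa fell by 0.42 and Clec4f, whose promoter drives Cre, fell by 1.52. Of the other cell type lists, the monocyte marker Plac8 (-0.95), the platelet marker Pf4 (-0.73) and the endothelial marker Clec4g (-0.80) fell, and Pecam1 (0.58) and the hepatocyte gene Cyp3a11 (0.81) rose. Mast cells and platelets are known to express Hpgds and Ptgs1. Of the 7 mast cell and basophil markers, 3 were at 0 in every sample of this table and 0 passed the threshold. The summed platelet and megakaryocyte level ranged from 9.43 to 9.55 in Id3f/f and from 8.86 to 8.98 in Clec4fcreId3f/f samples. Of the 6 genes in this sum, all tested, only Pf4 passed the threshold. The change was above 0 for 2 of the 6, and its median was -0.02. The part of these lists in the change of Hpgds and Ptgs1 was not tested.

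Beyond the members, 44 other genes of the pathway were examined by role. With tumour in TIM4+CD206+ KCs, 3 of the 36 tested rose and 0 fell, beside 2.55% and 0.998% of all genes. Mgst2, a glutathione transferase that can also make leukotriene C, rose by 1.55 ± 0.22 (SE, adjusted p = 0.00717, limma). Ptgr1, a reductase that inactivates prostaglandins and leukotriene B, rose by 1.44 ± 0.20 (adjusted p = 0.00707). Cyp4f18, which inactivates leukotriene B by hydroxylation, rose by 1.41 ± 0.17 (adjusted p = 0.00335). None of 7 genes of arachidonate release, 6 of prostanoid synthesis and 9 receptors passed the threshold. The median change over the 36 was 0.09, beside 0.02 over all genes.

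In TIM4+CD206high KCs with tumour, 4 of the 37 tested rose and 0 fell, beside 5.21% and 2.03% of all genes. Mgst2 rose by 1.79 ± 0.22 (SE, adjusted p = 0.00327, limma), and its samples read 5.39, 5.68 and 5.90 without and 7.41, 7.63 and 7.29 with tumour. Ltb4r1, a receptor for leukotriene B, rose by 3.02 ± 0.68 (adjusted p = 0.0416). Ggt1, which trims leukotriene C, rose by 1.68 ± 0.39 (adjusted p = 0.0451), and Ptgr1 by 1.07 ± 0.24 (adjusted p = 0.0392). The calls of Ltb4r1, Ggt1 and Ptgr1 were each lost under at least 1 other filter, with adjusted p from 0.0501 to 0.0673, and when single samples were left out. The median change was 0.31, beside 0.03 over all genes.

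With Id3 deletion, 1 of 33 tested pathway genes fell and 0 rose, beside 3.37% and 3.08% of all genes. Ptgis, the prostacyclin synthase, fell from 10.12, 10.11 and 10.18 in Id3f/f to 9.10 and 8.76 in Clec4fcreId3f/f samples, by -1.21 ± 0.11 (SE, adjusted p = 0.000792, limma). By the mean deposited value, not per kilobase, over all 17 samples of the separately normalized tables, the highest gene in each role was Daglb (arachidonate release), Akr1b3 (prostanoid synthesis), Lta4h (leukotriene metabolism), Cyp4f18 (inactivation) and Ptger2 (receptors), ranks that do not all hold in every group. Lta4h, which makes leukotriene B from leukotriene A, had means of 11.23 ± 0.11 and 11.23 ± 0.20 (SD, n = 3) in tumour-free and tumour-bearing TIM4+CD206+ KCs. Ptger2, a receptor of prostaglandin E, had means of 9.79 ± 0.15 (n = 3) in Id3f/f and 9.82 ± 0.10 (n = 2) in Clec4fcreId3f/f KCs. Ptgdr, a receptor of prostaglandin D, was listed at 0 in all 17 samples.

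As a description, the genes whose values followed each member most closely over the 17 samples, after subtraction of each table's mean, were ranked by Pearson's r among 12222 genes tested in all 3 tables. The samples of a table share its normalization, and groups within it differ in condition, so these r values carry no test. For Alox5 they were Bace2 (r = 0.94) and Nfe2 (0.93), and for Ltc4s Krt10 and Trmt10c (0.92 both). For Alox5ap they were Samsn1 (0.92) and Tnfsfm13 (0.91). For Ptgs1 they were Il10ra and Tmem43 (0.95 both), for Tbxas1 G6pdx (0.95) and Smyd5 (0.93), and for Hpgds P2ry14 (0.93) and Nceh1 (0.92). For Pla2g4a they were Osbp (0.91) and Stt3a (0.89), and for Hpgd Ctso (0.88) and Chp2 (0.84).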

How the data were processed

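RNA-seq of 17 sorted KC samples was analysed. Per the labels and the study's methods, the authors amplified RNA with SMART-Seq v4, aligned reads with STAR 2.7.10a, counted them with HTSeq and compared groups with DESeq2. The submitters' notes name mm10 (GRCm38), and the methods also name GRCm39. The authors deposited 3 tables of log2 values, each normalized on its own. The file names say counts and the columns TPM, while the values behave like a regularized log, so no count test was used. Counts per sample and depth are not in the files, and no interval that needs them is given.

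Genes at log2(10) or more in at least as many samples as the smaller group has were tested with limma 3.58.1 (R 4.3.3), letting the prior variance follow the mean, and p-values were adjusted by Benjamini-Hochberg over all genes tested. The script was tested on simulated data. Samples were grouped by the labels. Same-numbered TIM4+CD206+ samples deviated together (correlations of 0.35, 0.564 and 0.149 over genes, which is where the pairing comes from), so the replicate number was also fitted as a block there. This left Alox5 called (difference 1.72, adjusted p = 0.00121) and moved all genes called from 469 to 1026. Exon lengths are the union of exons in GENCODE M21, positions and promoters are RefSeq GRCm38.p6. The members and lists were chosen with earlier results of these data known. The text names all members, Id3, pathway genes called in any comparison or highest in their role, and the 2 most correlated genes per member. Of the other pathway genes, Alox15 and Ptgdr were named outside that rule.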

Additional observations from a re-analysis of the deposited data

How the results depend on the processing

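Every setting below was fitted with limma. Of 164 single-member results under other filters, centrings, trends and blocks, 157 kept their direction and their side of the threshold, and of 160 with 1 sample left out, 136 did. Members called numbered 1, 0 and 2 with tumour in TIM4+CD206+ KCs, with tumour in TIM4+CD206high KCs and with Id3 deletion. Leaving out 1 sample gave 0 to 3, 0 to 1 and 0 to 3 members. Genes called ranged from 231 to 1022 around 469, from 579 to 3634 around 1053 and from 17 to 1850 around 827. The highest counts came without tumour-free replicate 2 in each subset and without Id3f/f replicate 3, and the lowest of the Id3 table without Clec4fcreId3f/f replicate 1, where the lone remaining sample is assumed to vary like the controls.

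The replicate block called 1026 genes in TIM4+CD206+ KCs and 2089 genes and 4 members with Id3 deletion, and turned the Tbxas1 difference there to -0.066. In TIM4+CD206high KCs and in the Id3 table the numbers did not pair the samples (correlations of deviations -0.0481, -0.132 and -0.0511, and -0.0733 and -0.0996). The filter on a mean of at least log2(50) called 600 genes in TIM4+CD206high KCs, and no filter called 477 with Id3 deletion. In TIM4+CD206high KCs, median centring turned Hpgds to -0.064, and quantile normalization turned Ptgs1 to 0.063, Ptges to -0.076 and Tbxas1 to 0.0092 (log2 differences). With 1 sample left out in that subset, differences ranged from -0.036 to 1.65 for Alox5, -0.52 to 1.55 for Ltc4s, -0.24 to 0.44 for Hpgds, -0.23 to 0.74 for Ptges, -0.32 to 0.078 for Pla2g4a, -0.27 to 0.043 for Ptgs1 and -0.22 to 0.14 for Tbxas1, and Tbxas1 with Id3 deletion from -0.066 to 0.10. The extremes in TIM4+CD206high KCs came from leaving out tumour-free samples, and the cause was not tested. If the values are a regularized log, as they behave, differences of weakly expressed genes are understated.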
